A study of Mus musculus with 21 samples.

Results

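Late induced CLiPs were compared with freshly isolated mouse hepatocytes on 6 of the 21 arrays of the study, 3 in each group, chosen by their sample titles. CLiPs (chemically induced liver progenitors) are proliferating cells that arise from hepatocytes in culture. All cells came from female C57BL/6 mice. The late induced group held CLiPs at passage 12 (arrays 1 and 2) or passage 11 (array 3), kept for 8 days with oncostatin M and dexamethasone. The fresh group was profiled without culture and without inducers. Array 3 of the fresh group carries a passage 1 (P1) label, although its title and source name fresh hepatocytes, and it was counted as fresh. The other 15 arrays held P1 CLiPs and late CLiPs at day 0 and at day 8, the latter either induced or not. The labels do not say whether the arrays of a group were separate animals or cultures, so the spread that the p-values rest on may be technical.

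Hepatocytes make most plasma proteins, clear drugs through cytochrome P450 enzymes, secrete bile acids, turn ammonia into urea and release glucose, under a network of transcription factors that includes HNF4A and C/EBP proteins. In culture they lose much of this expression, and cells with progenitor character share keratins and surface proteins with bile duct cells. Oncostatin M is a cytokine of the interleukin 6 family that acts through OSMR, gp130 and STAT3, and dexamethasone activates the glucocorticoid receptor. Both are used to mature liver cells in culture. The comparison asks how far the cells stood from the starting hepatocyte after long passage and hepatic induction.

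Levels below are log2 processed signals minus the 75th percentile of the array, and a difference is the mean level in late induced CLiPs minus that in fresh hepatocytes. The 75th percentile signal itself was 291 to 332 on the fresh arrays and 881 to 1111 on the late induced arrays, with 46.1% to 46.8% and 56.6% to 58.7% of probes well above background. Across genes the levels of arrays of 1 group correlated at 0.977 to 0.992, and those of arrays of different groups at 0.693 to 0.745. Fresh arrays lay on slides 1 to 3 and were read on scanner 1 with a newer extraction version. Late induced arrays 1 and 2 lay on slide 6 and array 3 on slide 7, both read on scanner 2 with an older version. Slide, scanner and extraction version cannot be told apart from the group. The P1 arrays shared scanner 1 and the newer version with the fresh arrays. All late arrays shared scanner 2 and the older version, so differences between P1 and late CLiPs cannot be told apart from these either. The spike-in transcripts gave response slopes of 1.02 to 1.06 on the 6 arrays. Scaled to them instead, the median difference over all genes moved by 2.51, and lists whose median then changed sign are named as such. In the fresh group 25 of 25 plasma protein genes were well above background on all arrays, as the hepatocyte label has it, and 20 of them were so on all late induced arrays. Of the sex-linked genes, Xist was well above background on all 6 arrays and Ddx3y, Eif2s3y and Uty on none, while the probe of Kdm5d was on all 6.

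Late induced CLiPs stood far from fresh hepatocytes. Of 20798 genes tested, 5421 (26.1%) were called higher and 5542 (26.6%) lower, 10963 (52.7%) in all, where a call is an adjusted p under 0.05 and a change of at least 2-fold (limma, Benjamini-Hochberg adjustment over all tested genes). The fit pooled the spread of each gene over all 7 groups, so an SE or p-value does not measure the spread of the late induced arrays alone. The median difference was 0.02. The list counts below are to be read beside the shares called higher and lower over all tested genes. For 16381 genes (78.8%) the arrays of the groups did not overlap, and non-overlap of a named gene below is to be read beside that share. For 6615 genes (31.8%) the 95% interval of the difference lay within 1 log2 unit of 0. Many calls were losses to, or gains from, the background: 2140 of the genes called higher were dim in fresh hepatocytes, that is, well above background on none of those arrays, and 434 called lower were dim in late induced CLiPs. Such genes passed the filter only through the other group, so their p-values are no separate test of the direction. For a gene that is dim in a group by all of its probes, the fold change is given as a minimum. That minimum holds for the gene's brightest probe only, and another probe can give a smaller difference. With the spike-in scaling 17105 genes were called higher and 1187 lower.

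**Figure D1:**
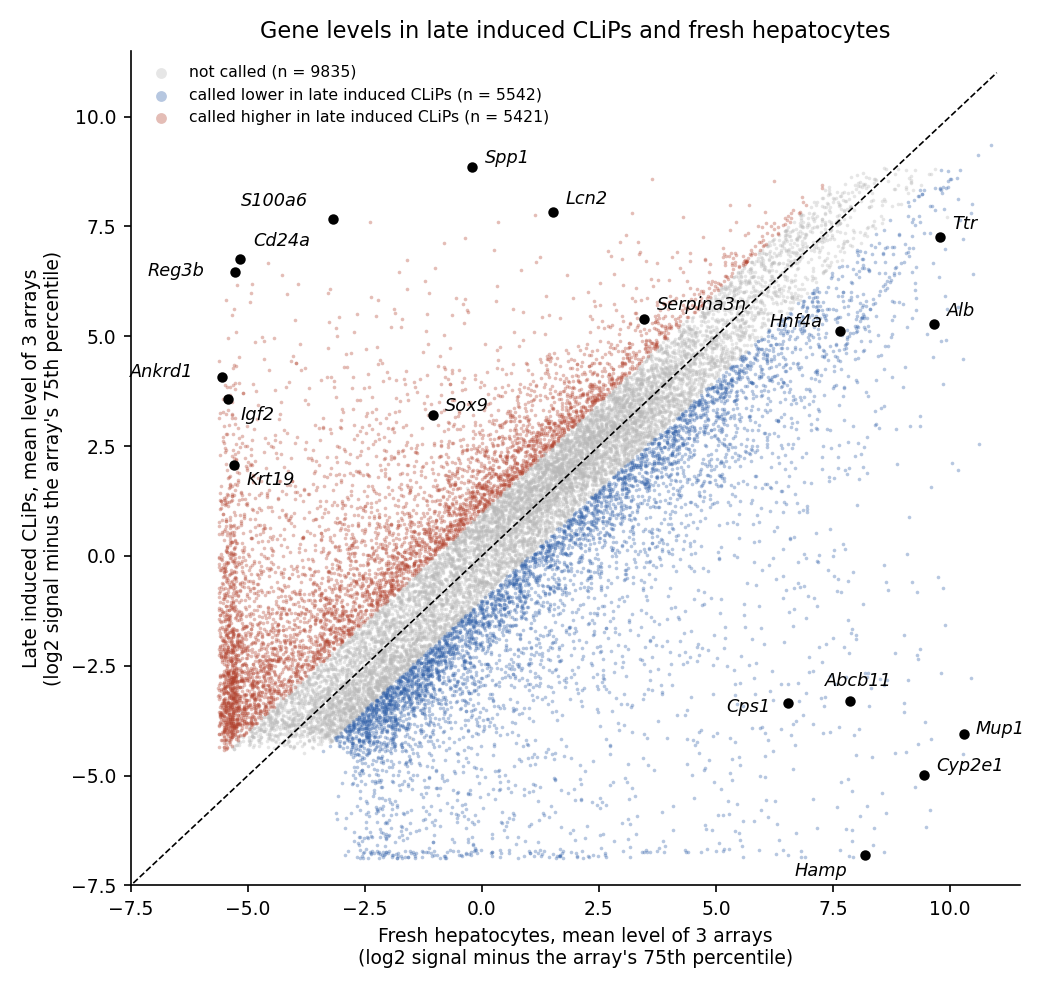
Mean level of each tested gene in fresh hepatocytes (x axis) and late induced CLiPs (y axis), both as log2 signal minus the 75th percentile of the array, with genes called higher in red, lower in blue and the rest in grey; the dashed line marks equal levels. Alb and Ttr stand high in both groups, Cyp2e1, Mup1 and Hamp lie at the lower right, and Spp1, Cd24a and Reg3b at the upper left. Scaling to spike-ins would shift both axes and raise each gene's difference from the dashed line by 2.51.

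Most of the listed hepatocyte genes fell, and many fell far. The 21 lists of hepatocyte functions held 382 tested genes, of which 328 (85.9%) fell, 19 rose and 35 were not called, with a median of -4.71. A difference under -10 was found for 59 of the 382 (15.4%), against 142 of all tested genes (0.683%), and one from -10 to -6 for 92 (24.1%), against 348 (1.67%). Only 34 of them (8.9%) lay between -1 and 1, where 9779 of all tested genes (47%) lay. The lists were written with earlier results of these data known, so these counts describe them and test nothing about them.

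**Figure D2:**
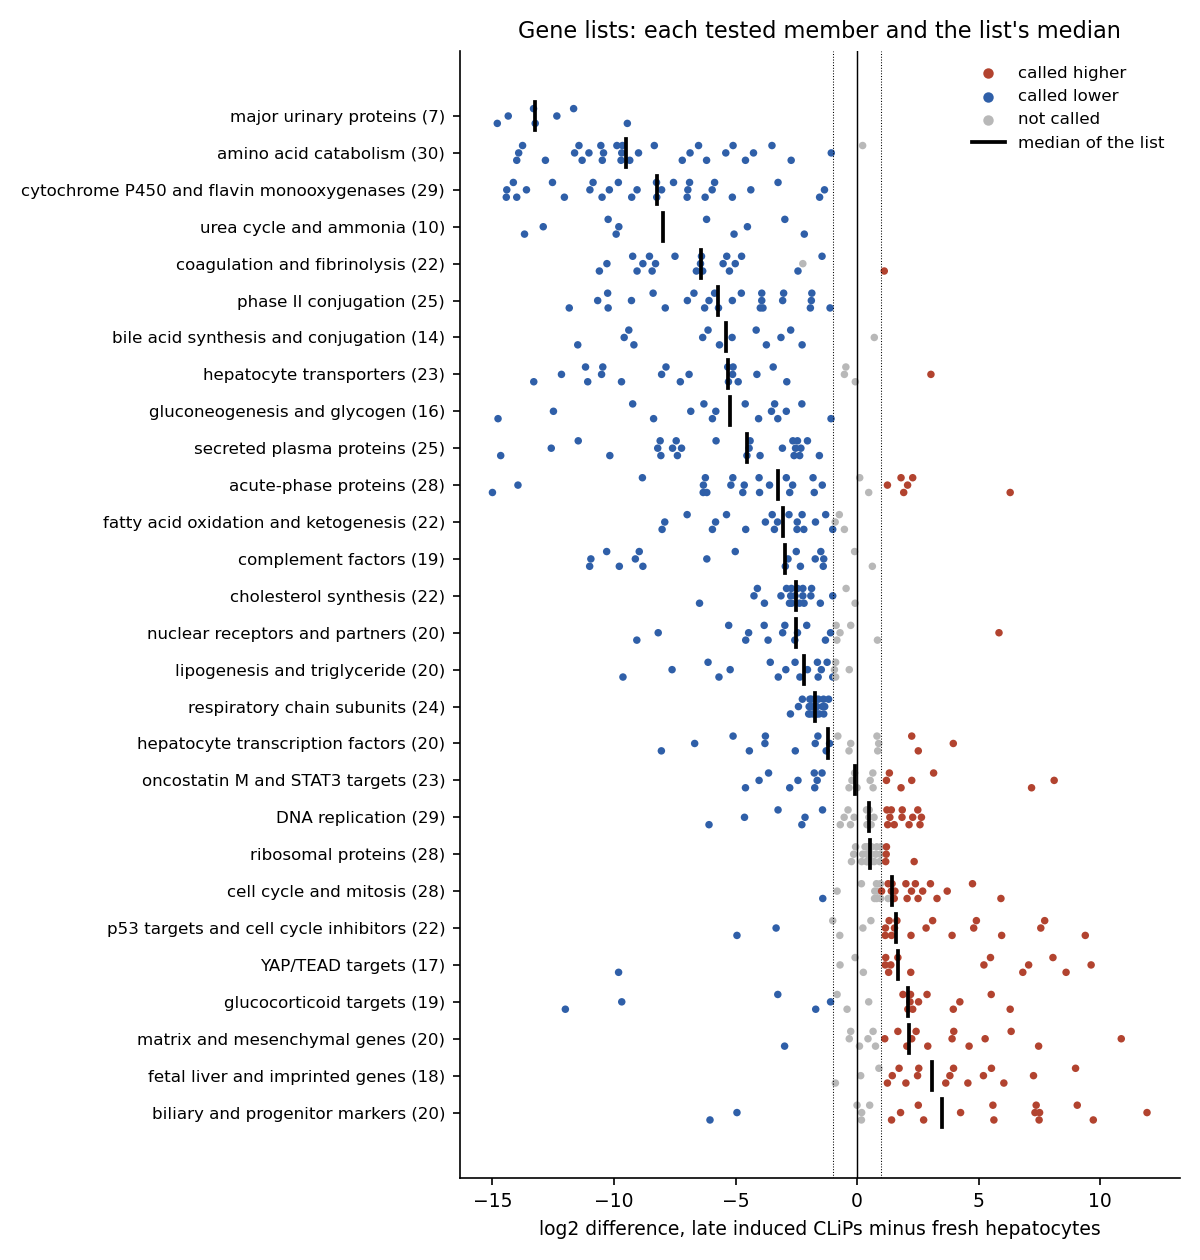
Difference of every tested member (points, coloured by call) of 28 gene lists, with the number tested in brackets and the list's median as a bar, on the log2 scale. Major urinary protein genes have a median of -13.24 and biliary and progenitor genes 3.50; dotted lines mark 2-fold, and with spike-in scaling all points would move right by 2.51, which puts the medians of cholesterol synthesis, respiratory chain, lipogenesis, nuclear receptor, transcription factor and oncostatin M genes above 0.

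Genes of secreted plasma proteins fell in 25 of 25 cases (median -4.53), over a range from -14.66 to -1.55. Alb, which encodes the main plasma protein albumin, stood at 9.64, 9.78 and 9.6 on the fresh arrays and at 5.13, 3.22 and 7.45 on the late induced arrays. The groups did not overlap, but the late induced arrays were far apart and array 3 was the highest. The difference was -4.40 (SE 0.89, adjusted p = 2.3e-04 by limma), a 21.1-fold fall. Without late induced array 3 it was -5.50, and without array 2 it was -3.38. The other probe of Alb gave -5.95. Ttr, the thyroxine and retinol carrier, stood at 9.66, 9.90 and 9.82 in fresh hepatocytes and at 7.05, 7.26 and 7.48 in late induced CLiPs. It fell by 2.53 (SE 0.29, adjusted p = 4.4e-07 by limma), with late arrays much closer to each other than for Alb. With spike-in scaling Ttr was at -0.02. Serpina6, which carries cortisol in blood, was dim in late induced CLiPs and at least 5350-fold lower, and Apoa5, a regulator of plasma triglyceride, fell by 12.58, with array 3 again the highest late array (-0.70, against -4.52 and -5.46).

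Major urinary proteins, pheromone carriers made in bulk by mouse liver, fell in 7 of 7 cases (median -13.24), the lowest list of all. Mup1 stood at 10.28, 10.41 and 10.18 in fresh hepatocytes and at -3.84, -6.92 and -1.42 in late induced CLiPs. It fell by 14.35 (SE 0.84, adjusted p = 7.0e-11 by limma). Mup17 was at least 14300-fold lower. Members of this family are nearly identical in sequence, so their probes may share transcripts.

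Drug and xenobiotic metabolism fell throughout. All 29 tested genes of cytochromes P450 and flavin monooxygenases were called lower (median -8.25), from -14.43 to -1.34. Cyp2e1, which oxidises ethanol and paracetamol, stood at 9.49, 9.71 and 9.13 in fresh hepatocytes and was dim at -4.65, -4.77 and -5.54 in late induced CLiPs. This was a fall of at least 16300-fold (adjusted p = 3.0e-16 by limma). The late arrays were alike here, and array 3 was the lowest of them. Cyp3a11, the main mouse gene of the drug-metabolising CYP3A family, read 6.77, 7.38 and 7.46 against -2.42, -3.92 and 0.12. It fell by 9.27 (SE 0.66, adjusted p = 9.3e-10 by limma), and here array 3 was the highest. Cyp2c50 and Cyp2c54, of the large Cyp2c family, were at least 5660-fold and 5610-fold lower, though probes of such close relatives may cross-read. The other probe of Cyp2c50 gave -8.2. Conjugating enzymes fell in 25 of 25 cases (median -5.70). Among them were the glucuronosyltransferase genes Ugt2a3, at least 1790-fold lower, and Ugt3a2 (-10.67, or -3.93 with another probe).

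Bile acid synthesis and export fell as well. In the list of synthesis and conjugation 13 of 14 genes fell (median -5.40). Cyp7a1, the rate-limiting enzyme of the classic pathway, was dim in late induced CLiPs and at least 146-fold lower with its brightest probe (-5.23 with the other). Slc27a5, which couples bile acids to coenzyme A, fell by 11.49 (SE 0.53). Cyp39a1 (0.71), an oxysterol hydroxylase gene, was not called. Hepatocyte transporters had 19 of 23 members lower and 1 higher, and their median was -5.32. Abcb11, the bile salt export pump, stood at 7.95, 7.86 and 7.82 in fresh hepatocytes and at -3.63, -5.79 and -0.47 in late induced CLiPs. The difference was -11.17 (SE 0.85, adjusted p = 2.2e-09 by limma), and array 3 was again the highest of 3 distant late arrays. Their SD was 2.68, against 0.07 on the fresh arrays, and the SE pools all groups. Slco1b2, an uptake carrier for organic anions, fell by 13.30, although another of its probes gave -4.86. Abcc4, an exporter of bile acids on the sinusoidal side, rose by 3.04 (SE 0.22). Slc10a1, the sodium-dependent bile acid uptake carrier, has no single answer here. Its brightest probe read 9.09 to 9.21 in fresh hepatocytes and 8.55 to 8.79 in late induced CLiPs, a difference of -0.52, while another probe gave -10.52. Slco2b1 had the same kind of conflict, with -0.46 and -11.54. Over all 7 groups the mean levels of their brightest probes lay from 8.48 to 9.17 for Slc10a1 and from -2.51 to -1.75 for Slco2b1. What these probes read was not tested.

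Nitrogen metabolism was among the groups that fell furthest. All 10 genes of the urea cycle and ammonia handling fell (median -8.0), and of amino acid catabolism 29 of 30 (median -9.50, or -9.17 with dim genes at their bound). Cps1, the first enzyme of the urea cycle, read 6.19, 6.82 and 6.63 in fresh hepatocytes and -3.67, -4.20 and -2.22 in late induced CLiPs (difference -9.91, SE 0.41, adjusted p = 8.0e-13 by limma). Arg1, its last enzyme, was dim at -4.90, -5.50 and -4.83 and at least 5340-fold lower. Otc, which makes citrulline, fell by 13.68 with its brightest probe (-5.24 with the other). That brightest probe was dim in late induced CLiPs, a fall of at least 2660-fold. No late induced array came near the fresh arrays for any of the 3. Tat, which starts tyrosine breakdown and is a classic glucocorticoid target, read -2.43, -2.32 and -2.51 in late induced CLiPs and fell by 9.68 (SE 0.22). Hpd, of the same pathway, was at least 5140-fold lower. Sdsl, a serine dehydratase-like gene, was the member not called (0.23).

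Genes of both zones of the liver lobule were affected. Of 14 tested periportal genes 13 fell (median -10.07) and Cdh1, the epithelial cadherin, rose (1.89, SE 0.27). Of 16 pericentral genes 13 fell (median -4.67). The 2 pericentral genes that rose were the Wnt targets Axin2 (2.30, SE 0.40) and Lgr5 (1.79, SE 0.32). Axin2, a feedback inhibitor of Wnt signalling, read -2.16, -2.51 and -1.69 in fresh hepatocytes and 0.35, 0.34 and -0.13 in late induced CLiPs, with no overlap. The Wnt receptor ligase gene Rnf43 was at 0.09 and not called. In P1 induced CLiPs Axin2 (-2.91) and Lgr5 (-5.62) stood below fresh hepatocytes instead, as levels on the same scale.

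Glucose production fell in every gene listed for it, 16 of 16 (median -5.21). Pck1, which commits carbon to gluconeogenesis, was dim at -6.78, -6.94 and -6.83 and at least 5700-fold lower. G6pc, which releases free glucose, fell much less. It read 4.92, 7.49 and 6.44 in fresh hepatocytes and 0.93, 0.26 and 3.85 in late induced CLiPs, and the arrays of both groups were spread (difference -4.60, SE 0.83, adjusted p = 7.9e-05 by limma). Fbp1 fell by 12.49. Fetal and adult isozymes of metabolism moved in both directions. The muscle and fetal pyruvate kinase gene Pkm (7.94, SE 0.17; 5.32 with another probe) and the platelet phosphofructokinase gene Pfkp (7.44, SE 0.26; 2.17 with another probe) rose, while the adult liver genes Mat1a of methionine activation (-11.31, SE 0.60) and Gls2 of glutamine breakdown (-9.80, SE 0.16) fell. Over that list of fetal and adult isozymes 11 of 24 genes rose and 8 fell (median 0.44).

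Lists of lipid and mitochondrial genes had medians closer to 0. Fatty acid oxidation and ketogenesis lost 19 of 22 genes (median -3.03), led by Bdh1 (-8.02), which makes the ketone body hydroxybutyrate, and Fabp1 (-7.91), the liver fatty acid carrier. Fabp1 read 2.86, -1.36 and 4.87 on the late induced arrays, against 9.94 to 10.14 in fresh hepatocytes. The dehydrogenase gene Acadl of long-chain oxidation was not called (-0.73, SE 0.07). Lipogenesis fell in 16 of 20 genes (median -2.19, or 0.32 with spike-in scaling), with Thrsp (-9.63) and Elovl2 (-7.61) the lowest. Cholesterol synthesis fell in 20 of 22 (median -2.50, or 0.01 with spike-in scaling), with the feedback gene Insig1 at -6.48 (SE 0.25). Subunits of the respiratory chain fell in 24 of 24 cases, within a narrow range from -2.74 to -1.17 (median -1.72, or 0.79 with spike-in scaling). Sdhb of complex II stood at 7.95 to 7.98 in fresh hepatocytes and at 5.19 to 5.25 in late induced CLiPs. Ribosomal protein genes rose in 4 of 28 cases, with 24 not called (median 0.55). Housekeeping reference genes had 4 of 20 lower and 2 higher (median -0.61, or 1.90 with spike-in scaling).

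Blood protein cascades fell unevenly. Complement factors fell in 17 of 19 cases (median -2.95). C8a and C8b, chains of the membrane attack complex, were at least 649-fold and 776-fold lower. The other probe of C8a gave -8.42. Coagulation and fibrinolysis genes fell in 20 of 22 cases (median -6.42). Klkb1, plasma prekallikrein, fell by 10.29, and Serpinc1, antithrombin, fell by 10.60 with its brightest probe but by 2.35 with another. Pros1, the cofactor protein S, was the one to rise (1.12, SE 0.23), or 0.40 and not called as the mean over its probes. Of the fibrinogen chains, Fgg read 9.93 to 9.97 in fresh hepatocytes and 7.39, 7.57 and 8.18 in late induced CLiPs. Its difference of -2.23 did not pass the test (adjusted p = 0.074 by limma), although the arrays did not overlap, and was positive with spike-in scaling.

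Acute-phase genes, many of which respond to interleukin 6 type cytokines, split. Of 28, 20 fell and 6 rose (median -3.26). The corresponding median in P1 induced CLiPs against the same fresh arrays was 0.97. Hamp, the iron hormone hepcidin, read 8.15, 7.84 and 8.58 in fresh hepatocytes and -6.71, -6.91 and -6.81 in late induced CLiPs, where it was dim. It was at least 6840-fold lower (adjusted p = 3.2e-17 by limma). Saa2, serum amyloid A, read 5.75, 5.69 and 5.57 against 2.16, -0.49 and 3.26 (difference -4.03, SE 0.81, adjusted p = 2.2e-04 by limma). Its late induced arrays were spread but all below the fresh ones. Serpina3n, a protease inhibitor, went the other way, from 3.27, 3.68 and 3.47 to 5.67, 5.90 and 4.62 (difference 1.92, SE 0.43, adjusted p = 6.1e-04 by limma). Lcn2, which binds bacterial iron carriers, rose by 6.30 (SE 0.29), and the metallothionein gene Mt2 by 2.29 (SE 0.35). Reg3b, a secreted lectin that is not in that list, was dim in fresh hepatocytes at -5.19, -5.30 and -5.33 and reached 6.91, 6.43 and 6.08 in late induced CLiPs. It was at least 868-fold higher (adjusted p = 4.2e-13 by limma). In late CLiPs kept 8 days without inducers Reg3b had a mean level of -3.71, and Hamp of -7.01. Lcn2 stood at 7.81 without inducers and 7.83 with them, and Mt2 at 8.06 and 8.54.

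Hamp and Reg3b are shown because both are acute-phase or cytokine-linked genes and they moved in opposite directions. The windows are the 250 bases before each start in GRCm38.p6 (RefSeq), at chr7:30944030-30944279 on the minus strand and chr6:78370635-78370884 on the plus strand. Capitals mark the palindromic letters TTCNNNGAA, which read the same on both strands and are the core of sites for STAT factors. They were present in 7.02% of the 32851 promoters searched.
Hamp: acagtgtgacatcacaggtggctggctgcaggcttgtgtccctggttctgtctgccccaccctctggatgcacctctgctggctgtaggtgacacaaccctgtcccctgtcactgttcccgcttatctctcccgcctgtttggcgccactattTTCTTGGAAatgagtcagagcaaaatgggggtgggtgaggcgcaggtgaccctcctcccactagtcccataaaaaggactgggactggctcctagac
Reg3b: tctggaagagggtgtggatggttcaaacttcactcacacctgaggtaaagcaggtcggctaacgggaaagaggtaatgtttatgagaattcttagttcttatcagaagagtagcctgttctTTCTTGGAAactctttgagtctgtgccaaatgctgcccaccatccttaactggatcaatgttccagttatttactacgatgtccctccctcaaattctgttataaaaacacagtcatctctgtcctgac
Both windows held 1 match, ending 89 bases before the start of Hamp and 121 bases before that of Reg3b. The matched letters were the same 9 bases in both. Equal letters in the windows stood beside opposite differences in level, and no binding was measured.

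Genes of the inducers' pathways moved in both directions. Osmr, the receptor subunit for oncostatin M, stood at -1.98, -3.06 and -2.39 in fresh hepatocytes and at 4.88, 4.64 and 4.58 in late induced CLiPs (difference 7.18, SE 0.24, adjusted p = 5.0e-14 by limma; 4.54 with another probe). Socs3, the feedback inhibitor induced by STAT3, read 4.09, 2.00 and 2.94 against 6.18, 5.98 and 6.33 (difference 3.15, SE 0.39, adjusted p = 1.0e-06 by limma). The fresh arrays were more spread than the late ones for both, and neither gene overlapped between groups. The list of oncostatin M and STAT3 targets as a whole had 7 genes higher and 9 lower of 23 (median -0.10, or 2.41 with spike-in scaling). Over all tested genes 26.1% were called higher and 26.6% lower. In this list Ccl2 (8.11) was the highest and the kinase gene Pim1 (-4.59) the lowest. Nr3c1, the glucocorticoid receptor gene itself, fell by 1.09 (SE 0.10, adjusted p = 3.4e-08 by limma), but by under 2-fold with quantile normalization (-0.56) or normexp (-0.87), and stood at 1.42 with spike-in scaling. Glucocorticoid targets had 11 of 19 members higher and 5 lower, and their median was 2.09. Fkbp5, which tempers the glucocorticoid receptor, read 3.49, 3.09 and 2.77 against 5.33, 5.13 and 5.15 (difference 2.09, SE 0.17, adjusted p = 3.9e-09 by limma). Ddit4, an inhibitor of mTOR signalling, rose by 5.52. Hsd11b1, which regenerates active glucocorticoid inside the cell, fell by 12.00 (SE 0.70). In late CLiPs kept 8 days without inducers the mean levels of Osmr, Socs3 and Ccl2 were 3.66, 3.23 and 7.45. With inducers they were 4.7, 6.16 and 5.01, so Ccl2 was lower with inducers. Fkbp5 and Ddit4 stood at 3.02 and 5.41 without inducers, and at 5.2 and 6.68 with them. The comparison with fresh hepatocytes cannot tell the inducers apart from culture and passage.

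**Figure D3:**
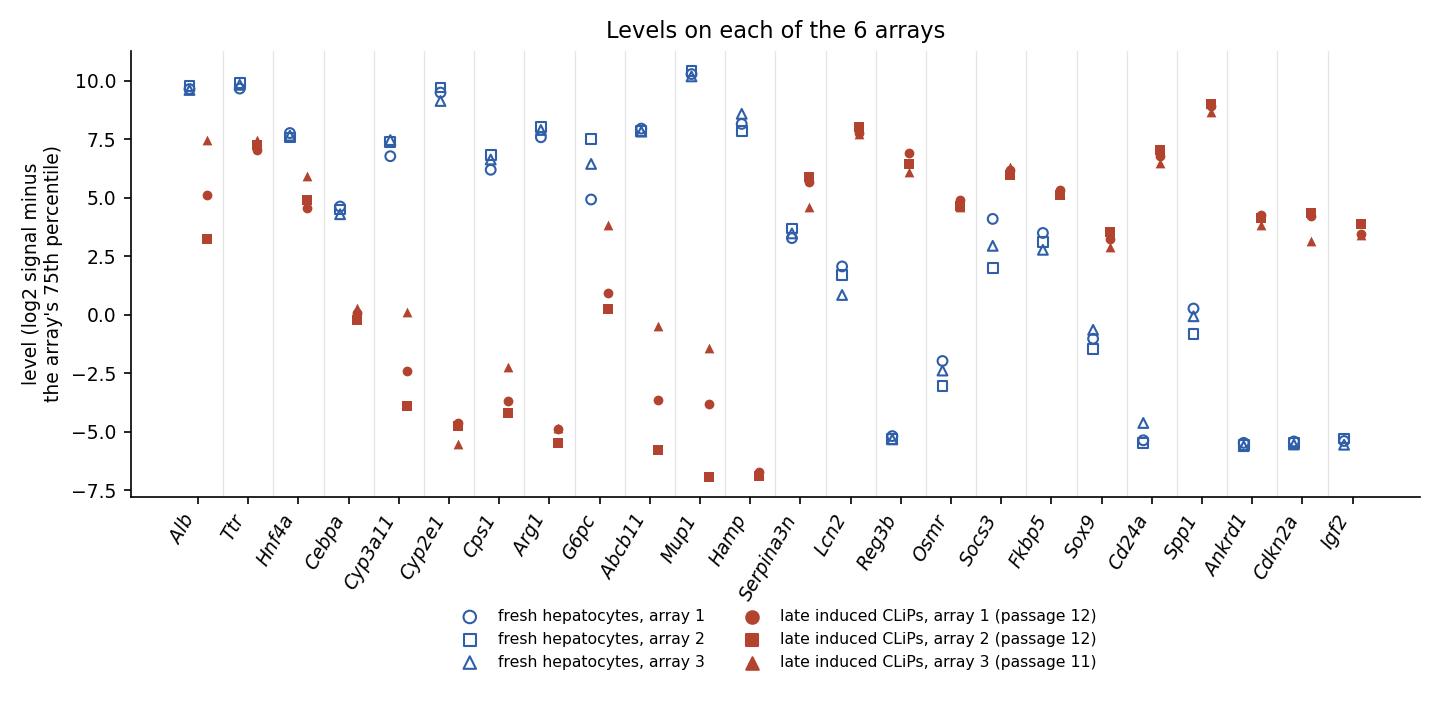
Level of 24 genes on each of the 6 arrays (y axis, log2 signal minus the 75th percentile of the array), fresh hepatocytes as open blue and late induced CLiPs as filled red symbols, 1 symbol shape per array number. Fresh arrays lie close together for most genes, while Alb, G6pc, Abcb11 and Mup1 are spread among late induced arrays with the passage 11 array the highest. No gene shown overlaps between the groups, nor did 78.8% of all tested genes.

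Of 20 hepatocyte transcription factors 11 fell and 3 rose (median -1.20, or 1.31 with spike-in scaling). Hnf4a, the central regulator of hepatocyte identity, read 7.76, 7.57 and 7.65 in fresh hepatocytes and 4.55, 4.90 and 5.93 in late induced CLiPs (difference -2.54, SE 0.27, adjusted p = 1.7e-07 by limma). With spike-in scaling it was at -0.03. Cebpa, which drives metabolic genes and restrains division, fell further, from 4.62, 4.49 and 4.29 to 0.09, -0.24 and 0.27 (difference -4.43, SE 0.27, adjusted p = 1.0e-10 by limma). The lowest were Tbx3 (-8.05), linked to pericentral identity, and Nr5a2 (-6.68), a regulator of bile acid genes. Cebpd, which cytokines and glucocorticoids induce, rose by 3.96 (SE 0.18), and Gata6 by 2.25. The mean level of Cebpd was 4.96 in late CLiPs kept 8 days without inducers and 5.09 with them. Cebpb (-0.33) was not called.

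Nuclear receptors and their partners fell in 14 of 20 cases (median -2.50, or 0.01 with spike-in scaling). Nr1i3, the xenobiotic sensor CAR, read 3.05, 2.81 and 2.68 against -2.57, -2.61 and -2.14 (difference -5.28, SE 0.21). Esr1, the oestrogen receptor, and Nr0b2, the bile acid feedback repressor SHP, were dim in late induced CLiPs and at least 186-fold and 86.0-fold lower. Another probe of Esr1 gave -5.46. Vdr, the vitamin D receptor, was the one to rise. Dim in fresh hepatocytes, it was at least 14.3-fold higher. Rxrb (-0.26) was not called.

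Genes of bile duct and progenitor cells had 14 of 20 tested members higher and 2 lower, and their median was 3.50, or 2.90 with dim genes at their bound. Of 27 on the array, 11 were well above background on all fresh arrays and 19 on all late induced arrays. Some tested members thus passed the filter only through the late induced group, and their rise tests nothing. Cd24a, a surface protein of liver progenitors, was dim in fresh hepatocytes at -5.37, -5.49 and -4.63 and stood at 6.80, 7.03 and 6.46 in late induced CLiPs, at least 1060-fold higher (adjusted p = 6.6e-18 by limma). Spp1, osteopontin, rose from 0.26, -0.83 and -0.07 to 8.90, 8.99 and 8.64 (difference 9.06, SE 0.20). Sox9, a transcription factor of the biliary lineage, rose by 4.26 (SE 0.21), or 3.1 with its other probe. The bile duct keratin genes Krt19 and Krt7 were at least 41.4-fold and 9.65-fold higher. Epcam, a further marker, was well above background on all arrays of neither group and was not tested. Its late induced arrays read -1.71, -2.93 and -4.63. Mmp7, a matrix protease, was at least 286-fold higher, while Krt23 (-6.05, SE 0.91) and the claudin gene Cldn3 (-4.94, SE 0.57) fell.

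Of 20 epithelial keratin and junction genes, 6 rose and 5 fell (median 0.07), near the 26.1% and 26.6% over all tested genes. The hepatocyte keratin genes Krt8 (-0.38) and Krt18 (0.44) were not called. Gjb2, a gap junction gene of hepatocytes, fell by 7.40, with late induced arrays at -0.82, -4.01 and 2.64. The tight junction gene Cldn1 fell by 6.93 (SE 0.44). Annexins, galectins and tubulins had 12 of 21 members higher and 3 lower, and their median was 1.20, with Anxa8 at least 988-fold higher. Anxa1 was at 10.14 with its brightest probe, which was dim in fresh hepatocytes (at least 607-fold), and at 3.78 with another.

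Fetal liver and imprinted genes had 15 of 18 members higher and no member lower, and their median was 3.09, or 2.57 with dim genes at their bound. Igf2, the fetal growth factor, was dim in fresh hepatocytes at -5.40, -5.29 and -5.56 and read 3.44, 3.86 and 3.42 in late induced CLiPs, at least 116-fold higher (adjusted p = 2.8e-12 by limma). The other probe of Igf2 gave 5.14. Afp, the fetal counterpart of albumin, rose from -1.64, -0.71 and -1.32 to 2.67, 3.99 and 3.34 (difference 4.56, SE 0.32, adjusted p = 9.0e-10 by limma). The imprinted gene Peg3 rose by 7.26 (SE 0.30), or 3.97 with another of its probes. The arrays did not overlap for any of the 3.

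Of 28 cell cycle genes 17 rose and 1 fell (median 1.42). Mki67, a marker of dividing cells, read -2.88, -0.98 and -1.10 in fresh hepatocytes and 0.45, 0.41 and 0.35 in late induced CLiPs (difference 2.06, SE 0.35, adjusted p = 3.8e-05 by limma). In late CLiPs at day 0 its mean level was 4.62, and without inducers at day 8 it was 1.77. Foxm1, a driver of mitotic genes, rose by 4.75 with its brightest probe, which was dim in fresh hepatocytes (at least 9.03-fold). The mean over its probes (0.87) was under 2-fold and not called. Ccnd2 rose by 5.92 (SE 0.23) and Ccnd1, a cyclin of the same type, fell by 1.41 (SE 0.26; 1.1 with spike-in scaling). DNA replication genes had 12 of 29 higher and 6 lower (median 0.50), from Mcm2 of the replicative helicase (2.65) to Tk1 (-4.63), which salvages thymidine, and Mcm10 (-6.09), whose other probe gave -0.63.

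Inhibitors of the cycle and p53 targets had 16 of 22 members higher and 2 lower, and their median was 1.59. Cdkn2a, which encodes the inhibitors INK4A and ARF, was dim in fresh hepatocytes at -5.42, -5.50 and -5.55 and read 4.21, 4.33 and 3.15 in late induced CLiPs. It was at least 146-fold higher with its brightest probe (adjusted p = 2.0e-15 by limma), and its other probe gave 4.94. Phlda3, a p53 target that restrains AKT, rose by 7.72 (SE 0.23). Perp (-4.94), another p53 target and a desmosome protein, and Btg2 (-3.33), an antiproliferative gene, fell.

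Targets of the mechanical sensor YAP and its partner TEAD had 13 of 17 members higher and 1 lower, and their median was 1.68. Ankrd1, a standard readout of the pathway, was dim in fresh hepatocytes at -5.48, -5.57 and -5.62 and read 4.27, 4.11 and 3.85 in late induced CLiPs, at least 165-fold higher (adjusted p = 2.3e-19 by limma). Ctgf, a matrix-linked growth regulator, rose by 8.60 (SE 0.28). Nt5e, an ectonucleotidase that hepatocytes carry, fell by at least 211-fold. Ankrd1 is shown as the target that rose furthest. Its window is the 250 bases before the start, on the minus strand of GRCm38.p6 (RefSeq), at chr19:36119845-36120094, with capitals at the letters GGAATG, the core read by TEAD factors, searched on either strand.
Ankrd1: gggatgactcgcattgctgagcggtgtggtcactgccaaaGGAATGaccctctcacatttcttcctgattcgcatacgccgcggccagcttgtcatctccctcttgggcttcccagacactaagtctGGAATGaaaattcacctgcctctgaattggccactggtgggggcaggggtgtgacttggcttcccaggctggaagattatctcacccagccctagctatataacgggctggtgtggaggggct
The window held 2 matches, at 210 to 205 and at 123 to 118 bases before the start. A match of these letters was present in 12.6% of the 32851 promoters searched.

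Matrix and mesenchymal genes had 13 of 20 tested members higher and 1 lower, and their median was 2.15, or 1.60 with dim genes at their bound. S100a6, a calcium-binding protein, went from -3.24, -3.41 and -2.94 to 7.60, 7.99 and 7.44 (difference 10.87, SE 0.16, adjusted p = 1.6e-18 by limma). Vim, the filament protein vimentin, rose from -0.67, -1.98 and -1.0 to 6.28, 6.51 and 5.97 (difference 7.47, SE 0.24). Neither gene overlapped between the groups. The collagen gene Col1a2 fell by 2.98 (SE 0.83), and Col1a1 and Col3a1 were not tested for lack of signal on all arrays of either group. Where all 6 arrays measured a gene, some of the highest differences were those of Bicc1 (10.00), which binds RNA, the protease inhibitor gene Timp2 (8.33, or 7.27 with its other probe) and the actin-binding thymosin gene Tmsb10 (7.60, or 0.74 with another probe). Some of the lowest were those of the urate oxidase gene Uox (-11.95), the alcohol dehydrogenase gene Adh1 (-10.89) and Aass (-11.44, or -9.15 with its other probe) of lysine breakdown.

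Stress programs moved gene by gene, with counts to be set beside 26.1% higher and 26.6% lower over all tested genes. NRF2 targets had 6 of 16 higher and 6 lower (median 0.05), with the quinone reductase gene Nqo1 at least 27.2-fold lower. The transporter gene Abcc1 was at 4.30 (1.21 with its other probe). Its brightest probe was dim in fresh hepatocytes, a rise of at least 6-fold. Genes of the unfolded protein response had 10 of 19 members lower and 3 higher, and their median was -1.02, or 1.49 with spike-in scaling. The chaperone gene Hsp90b1 fell by 1.95 (0.56 with spike-in scaling), while Asns, an asparagine synthetase gene under ATF4, rose by 7.38 (SE 0.21). Immediate early genes had 8 of 22 higher and 8 lower (median 0.05). Fos, which isolation of hepatocytes is known to induce, read 5.34, 3.88 and 4.21 in fresh hepatocytes and -1.04, -0.25 and 0.46 in late induced CLiPs (difference -4.75, SE 0.42).

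Interferon-stimulated genes had 3 of 21 higher and 3 lower (median -0.22, or 2.29 with spike-in scaling), and the late induced arrays disagreed. The median on single arrays was 0.15, -1.29 and 0.80. Oasl2, an antiviral enzyme gene, rose by 4.16, with late arrays at 3.03, 0.91 and 3.63 above fresh ones at -0.88, -2.23 and -1.79. In P1 induced CLiPs the median of the list was -2.84 against the same fresh arrays. Genes of antigen presentation had 9 of 17 members lower and 1 higher, and their median was -1.21, or 1.30 with spike-in scaling. Chemokines and cytokines rose in 10 of 19 and fell in 6 (median 1.03), among them Cxcl5, which draws neutrophils, at least 48.8-fold higher, and Cxcl12 (-7.28, or -5.52 with its other probe).

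Markers of endothelial and Kupffer cells were measurable in fresh hepatocytes, and fewer of them were so in late induced CLiPs. Of 15 endothelial markers 12 were well above background on all fresh arrays, and 7 were on no late induced array. Of 13 tested, 9 fell and 2 rose (median -3.62, or -2.33 with dim genes at their bound). Kdr, the VEGF receptor, was at least 50.7-fold lower. Clec4g, a sinusoidal lectin, fell by 8.67 (at least 206-fold, its brightest probe being dim in late induced CLiPs). Kupffer cell and macrophage markers fell in 10 of 14 cases (median -4.66, or -3.04 with dim genes at their bound), with Cd5l at least 108-fold lower and 8 of 15 on no late array. The summed signal of the Kupffer list, in units of the array's 75th percentile, was 19.7 to 51.7 on fresh arrays and 10.3 to 12 on late induced ones. Of 13 stellate cell markers 6 were tested, of which 4 fell and 1 rose. Their summed signal was 7.33 to 20.6 on fresh arrays and 16.4 to 35 on late induced ones, which is higher but overlapping. Erythroid genes fell in 4 of 4 tested cases (median -1.46, or 1.05 with spike-in scaling). Lymphocyte markers had 2 of 3 lower and 1 higher (median -1.71, or 0.80 with spike-in scaling). The 3 tested mesothelial markers rose, with Msln at least 78.3-fold higher. All 8 mesothelial markers on the array were well above background on no fresh array, and 4 on no late induced array. Those tested passed the filter only through the late induced group, so their rise tests nothing. Some tested endothelial and Kupffer cell markers likewise passed only through the fresh group, and the fall of those tests nothing. In bulk samples, fewer cells of a type and less RNA per cell cannot be told apart. The part of these cells in the other differences was not tested.

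The late induced arrays were not equal in how much hepatocyte expression they held. Array 3, the passage 11 sample on its own slide, was the highest of the 3 for 237 of the 328 hepatocyte list genes that fell, and array 2 was the lowest for 193. Among all 5542 genes called lower, array 3 was the highest for 2194 and the lowest for 2223. The median of coagulation genes on arrays 1, 2 and 3 was -7.04, -8.69 and -3.93 against the mean of the fresh arrays. For secreted plasma proteins it was -4.81, -6.45 and -3.58, and for gluconeogenesis -5.60, -6.55 and -3.32. Array 3 stood closest to fresh hepatocytes in each. Matrix genes, which were higher in late induced CLiPs, were also nearest to the fresh level on array 3 (2.64, 2.33 and 1.41), and the respiratory chain hardly differed (-1.68, -1.75 and -1.79). Array 3 was the lowest late induced array for 3037 of the 5421 genes called higher and for 10803 of all 20798 tested. Without array 3 the difference of Fabp1 was -9.28, of G6pc -5.68 and of Mup1 -15.67, and without array 2 these were -6.17, -3.89 and -12.92. Of the 126 named genes with a difference of at least 2-fold, leaving out array 3 moved 19 by over 1.5 times, 18 of them away from 0, and leaving out array 2 moved 20, of which 19 moved toward 0. Array 1 moved 2 (Bdh1 to -7.31, Krt23 to -6.93), fresh array 1 moved 3 (Cd5l to -8.05, G6pc to -5.28, Mki67 to 1.44) and fresh array 2 moved 1 (G6pc to -4.0). Passage and slide cannot be told apart in this array.

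**Figure D4:**
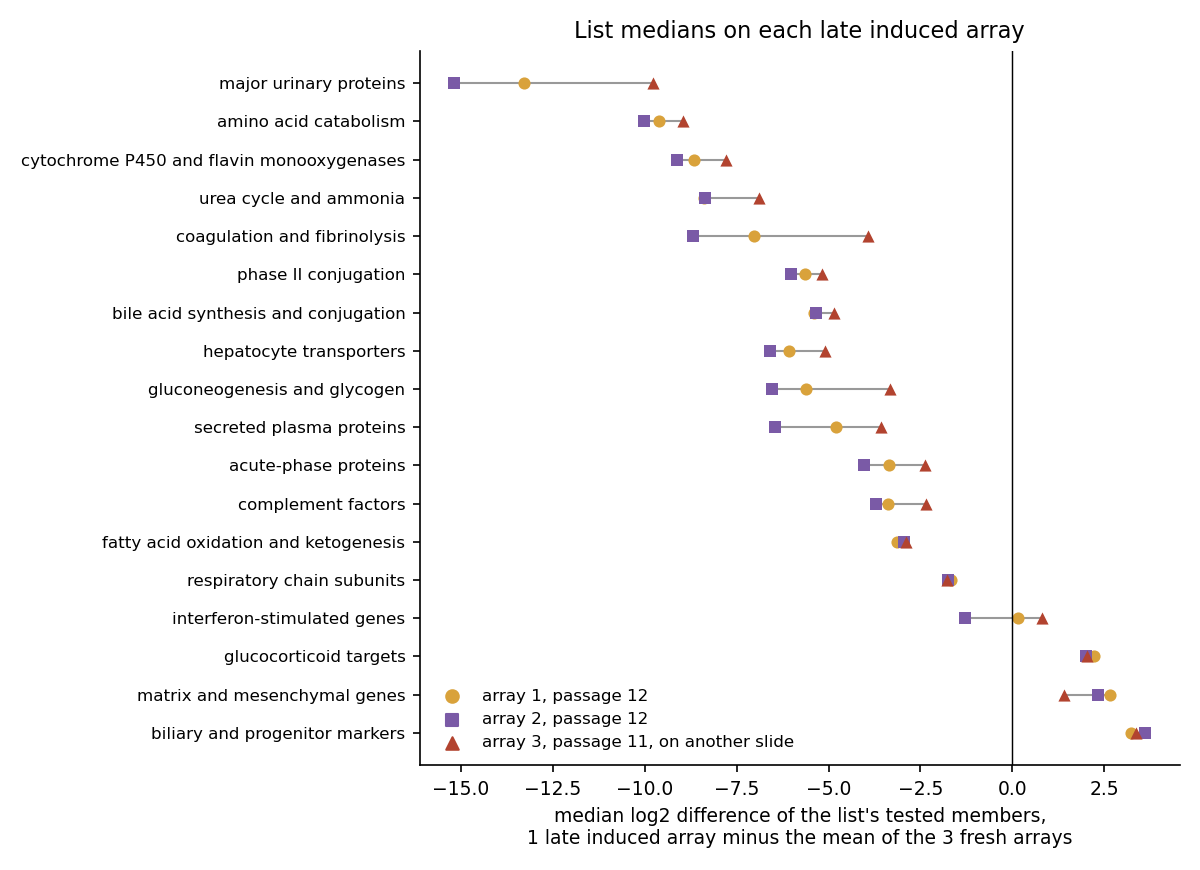
Median difference of the tested members of 18 lists on each late induced array against the mean of the 3 fresh arrays (x axis, log2), with 1 symbol per array. The passage 11 array lies nearest to 0 for most hepatocyte lists, such as coagulation (-3.93 against -7.04 and -8.69), while all 3 coincide for the respiratory chain.

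The other groups place these levels. All differences from fresh hepatocytes share the same 3 fresh arrays, so they are given side by side only. P1 and late arrays also differed in scanner and extraction version, which cannot be told apart from passage. The mean level of Alb was 9.67 in fresh hepatocytes, 8.54 in P1 induced, 5.27 in late induced, 5.76 in late uninduced and 1.21 in late day-0 CLiPs. Ttr was 9.79, 7.39, 7.26, 6.44 and 3.94 in the same order, and the means of the induced groups lay close together. Abcb11 was 7.87, 2.14, -3.30, -5.77 and -6.14, and Arg1 7.83, 2.15, -5.08, -6.92 and -6.96. In these the late induced level lay nearer to the uninduced level than to the P1 induced one. Serpina3n (3.47, 7.45, 5.40, -2.84 and -7.11) and Reg3b (-5.27, 7.51, 6.47, -3.71 and -6.99) passed the fresh level in both induced groups. Over lists, the median against fresh hepatocytes was -1.88 in P1 induced and -6.42 in late induced CLiPs for coagulation, -5.11 and -9.50 for amino acid catabolism, and -1.53 and -1.72 for the respiratory chain.

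**Figure D5:**
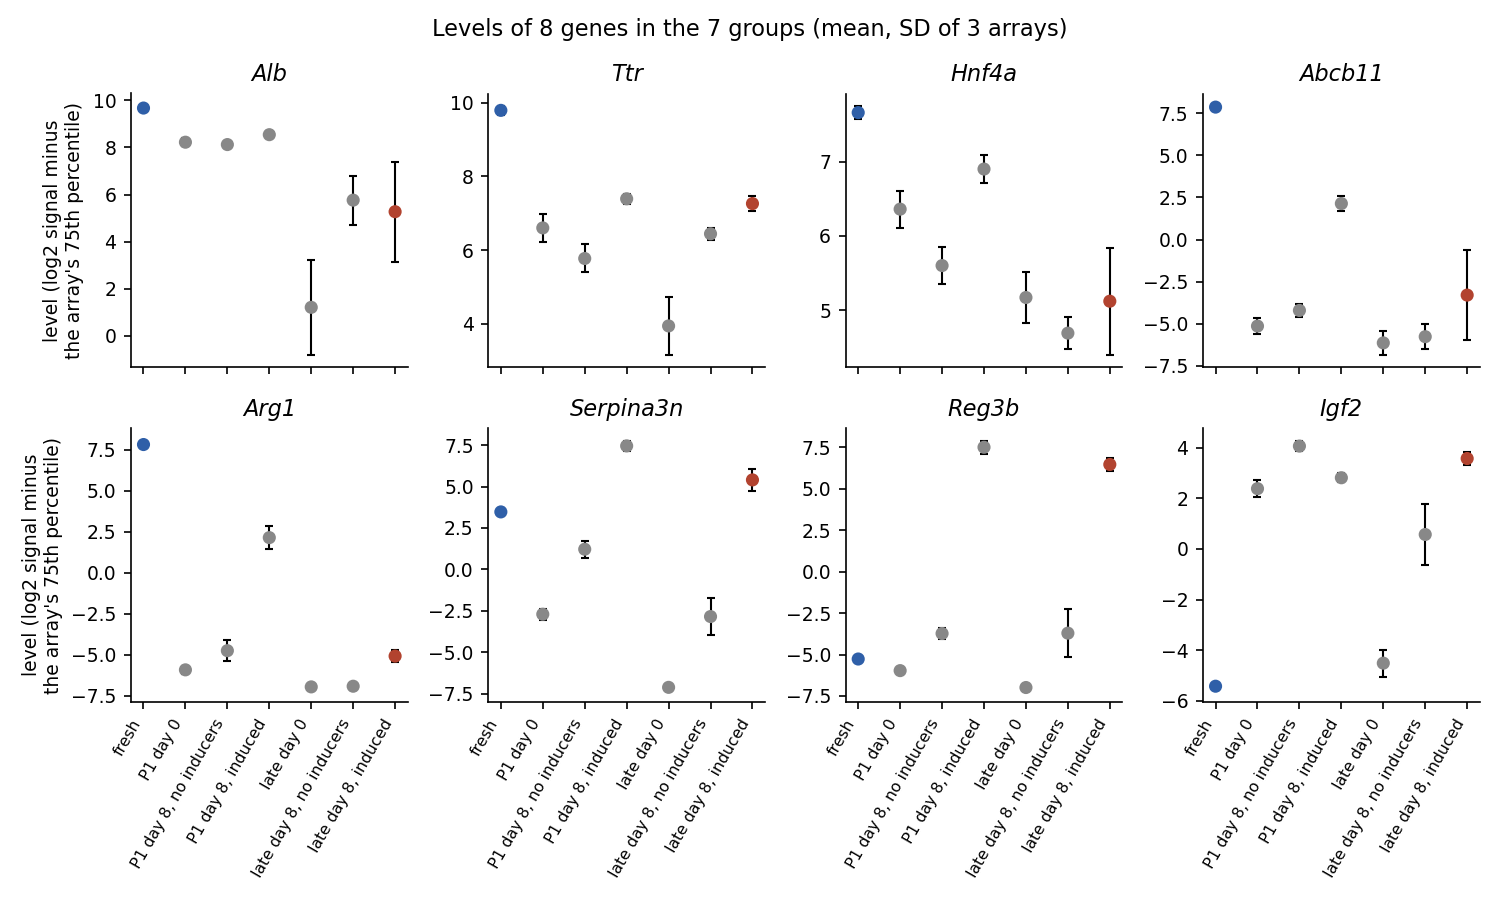
Mean level of 8 genes in the 7 groups (y axis, log2 signal minus the 75th percentile of the array, bars the SD of 3 arrays), fresh hepatocytes in blue and late induced CLiPs in red. Ttr is at 7.39 in P1 induced and 7.26 in late induced CLiPs, whereas Arg1 is at 2.15 and -5.08, and Reg3b is high in both induced groups only.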

How the data were processed

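RNA was labelled with Cy3 and hybridised to Agilent 1-colour arrays, per the labels' protocols. The authors deposited scanner output with an intensity for each spot, background-corrected by the Feature Extraction software, per the file headers, and tables of centred log2 values. The deposited log2 table of the fresh and late arrays equalled the values computed here after centring each probe, within 0.01 for all probes; it served as an alternative. Arrays limit the precision through their number, 3 per group.

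The level of a probe is log2 of its processed intensity, from which the array's own 75th percentile was subtracted. Spots of a probe were averaged. A gene is its probe with the highest mean over 21 arrays. It was tested where that probe was well above background on all 3 arrays of either group. All 21 arrays entered 1 fit with 7 group means (limma 3.58.1 in R 4.3.3, lmFit and eBayes), with Benjamini-Hochberg adjustment over 20798 genes. The fit was also run on simulated data, with spreads taken from the fresh arrays and equal in all groups. That run does not cover the wider spread of some genes among late induced arrays. A minimum fold, computed for the gene's brightest probe, sets the brighter mean against the lowest signal well above background on each dim array. Gene names are those of the array, updated to RefSeq symbols where an accession matched (32994 of 56605 probes). Promoters came from RefSeq.

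Genes are named if in a core of markers, among the largest changes overall or in a list, or within 2-fold by their interval; Cyp39a1, Cyp3a41a, Fgg, Gata6, Ghr, Igf1, Krt8, Krt18, Nr3c1 and the sex-linked genes were added after their values were seen. The members and the 49 lists were chosen with earlier results of these data known. Alternatives covered scaling, background, filter, probes, arrays in the fit, replicate number, slide and each array left out. The other 15 arrays entered the fit and the levels by group. A few listed genes are not reported here by name.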

Additional observations from a re-analysis of the deposited data

How the results depend on the processing

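The main counts were 5421 genes higher and 5542 lower, with 49.4% of calls higher. Leaving out each of the 6 arrays gave 5298 to 5519 higher and 5370 to 5685 lower. Spike-in scaling gave 17105 and 1187 (93.5% higher), no filter on dim probes 5548 and 15690 (26.1%), a filter on all 6 arrays 2692 and 4592 (37.0%, with fewer genes tested), and normexp background correction 3557 and 5237 (40.4%). The cause of the normexp change was not tested. Quantile normalization gave 6243 and 4838. Equal replicate numbers did not pair the samples: deviations of same-numbered arrays correlated at 0, -0.01 and -0.04. With the replicate block 5429 genes were higher and 5541 lower, and no named gene changed its call.

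With spike-in scaling these values changed sign: Acadl 1.78, Ccnd1 1.1, Cebpb 2.18, Fgg 0.28, Hsp90b1 0.56, Igf1 0.15, Krt8 2.13, Nr3c1 1.42, Rxrb 2.25, Slc10a1 1.99 and Slco2b1 2.05. So did the medians of lipogenesis (0.32), nuclear receptors (0.01), cholesterol synthesis (0.01), iron and haem (1.08), erythroid (1.05), unfolded protein response (1.49), transcription factor (1.31), respiratory chain (0.79), antigen presentation (1.30), lymphocyte (0.80), oncostatin M target (2.41), interferon-stimulated (2.29) and housekeeping genes (1.90). With quantile normalization Cebpb was 0.26, Krt8 0.30, Rxrb 0.12 and Slc10a1 0.58. The chemokine median was -0.01 with normexp and -1.64 with the filter on all 6 arrays, and the mesothelial median -0.81 without a filter. Rnf43 ranged from -0.15 to 0.51 with 1 array left out (-0.09 without fresh array 3). Fgg passed the test in the fit of the 6 arrays alone (-2.23, adjusted p = 1.5e-04 by limma). Hnf4a, Ttr, Saa2, Sdhb, Btg2 and Col1a2 were no longer called with spike-in scaling.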

Other observations

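Liver genes that differ between the sexes fell in 17 of 18 tested cases in late induced CLiPs, all from female mice, with a median of -6.76 (-6.43 with dim genes at their bound). Cyp2b13, a P450 gene of female liver, was at least 1900-fold lower. Cyp3a41a, another such gene, read 9.11, 9.42 and 9.38 in fresh hepatocytes and -0.66, -3.99 and 2.18 in late induced CLiPs, with array 3 again the highest of the late arrays. Cyp4a12a, a P450 gene of male liver, was the one to rise, from -2.94, -1.82 and -3.90 to 0.46, 1.15 and 2.40 (difference 4.23, SE 0.86, adjusted p = 2.4e-04 by limma).

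Genes of the growth hormone axis had 11 of 14 members lower and 2 higher, and their median was -2.52, or -0.01 with spike-in scaling. The receptor gene Ghr fell by 4.72 (SE 0.22; its probes ranged from -6.57 to -3.40), and Igfbp2, a carrier of insulin-like growth factors, by 10.34 (SE 0.26). Igf1 fell by 2.36 with its brightest probe (positive with spike-in scaling) and another probe gave -9.73. The kinase gene Jak2 rose by 2.25 (SE 0.15). Genes of iron and haem handling had 12 of 19 members lower and 1 higher, and their median was -1.43, or 1.08 with spike-in scaling. The exception was Hmox1, which breaks down haem, at 1.85, 1.24 and 1.18 in fresh hepatocytes and 4.79, 4.45 and 4.56 in late induced CLiPs (difference 3.18, SE 0.47, adjusted p = 7.9e-06 by limma).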
